A study of Rattus norvegicus with 5 samples.

Results

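The Bcl2 family of cell death was read in parietal cortex of rats with kaolin-induced neonatal hydrocephalus. Its 10 members were taken by name (Bax, Bak1, Bcl2, Bcl2l1, Bcl2l2, Bcl2l11, Bid, Bad, Mcl1 and Bbc3), whatever their measured values. Every non-control probe that carried one of these names in the array files, or whose current rat symbol was one of them, was used, which gave 18 of 41012 probes. Each of 5 two-colour whole-genome Agilent arrays compared 1 kaolin sample, labelled with Cy3, directly with 1 saline sample, labelled with Cy5. The kaolin group held 5 samples of parietal cortex from pups injected with kaolin on postnatal day 1. Kaolin is a clay that blocks cerebrospinal fluid pathways, after which the ventricles enlarge. The saline group held 5 samples of the same region from pups injected with saline on the same day. All tissue was taken on postnatal day 22, which was day 21 after injection, and all pups had stayed with the dam. The strain, the sex of the pups and the site of injection are not given in the sources used here. The labels do not say whether a sample was 1 animal, so p-values measure the spread between arrays, which may be partly technical. The dyes were never exchanged, so an effect of the dye and an effect of the treatment cannot be told apart.

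Bcl2 family proteins control whether the outer mitochondrial membrane stays intact. The effectors Bax and Bak1 form pores in that membrane, which release cytochrome c and lead to the activation of caspases. The survival members Bcl2, Bcl2l1 (Bcl-xL), Bcl2l2 (Bcl-w) and Mcl1 hold the effectors in check, and the BH3-only members Bid, Bad, Bbc3 (Puma) and Bcl2l11 (Bim) bind survival members or activate the effectors. In the brain, Bax is known for its part in the developmental death of neurons, and Bcl-xL and Mcl1 for keeping neurons and progenitors alive.

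With the brightest probe of each gene and the reported processing, Bid and Mcl1 had the most similar log2 ratios of any pair of members across the 5 arrays. Their means lay farther apart under some other ways of processing, as given below. Bcl2 lay farthest from both of them. Their promoters, from 250 bases before to 50 bases after the annotated start, are printed to show the sequence at the start of these 3 genes. They are RefSeq sequences on the GRCr8 build, given 5′ to 3′ along the gene's strand, with every match to the searched motifs in capitals. The Bid promoter lies at chr4:155808270-155808569 on the minus strand, the Mcl1 promoter at chr2:185907918-185908217 on the plus strand and the Bcl2 promoter at chr13:23366851-23367150 on the minus strand.
Bid: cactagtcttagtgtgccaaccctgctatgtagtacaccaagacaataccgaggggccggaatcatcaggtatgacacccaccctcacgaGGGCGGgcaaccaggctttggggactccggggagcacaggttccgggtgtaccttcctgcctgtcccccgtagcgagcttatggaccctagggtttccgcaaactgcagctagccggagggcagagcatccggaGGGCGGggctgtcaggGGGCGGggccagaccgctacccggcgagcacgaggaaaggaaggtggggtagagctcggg
Mcl1: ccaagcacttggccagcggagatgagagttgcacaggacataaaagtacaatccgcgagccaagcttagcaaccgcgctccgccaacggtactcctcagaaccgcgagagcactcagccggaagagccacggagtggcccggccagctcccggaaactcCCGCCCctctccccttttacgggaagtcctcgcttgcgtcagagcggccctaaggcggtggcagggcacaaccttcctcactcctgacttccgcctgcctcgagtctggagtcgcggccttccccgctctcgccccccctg
Bcl2: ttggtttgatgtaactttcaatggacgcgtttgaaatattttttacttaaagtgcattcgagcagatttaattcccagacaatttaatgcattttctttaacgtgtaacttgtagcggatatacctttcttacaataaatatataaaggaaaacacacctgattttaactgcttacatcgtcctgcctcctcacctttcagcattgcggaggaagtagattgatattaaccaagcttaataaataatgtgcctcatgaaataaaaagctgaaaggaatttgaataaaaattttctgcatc
The motifs searched on both strands were the GC box (GGGCGG), the cyclic AMP response element (TGACGTCA), a STAT site (TTCNNNGAA) and the E-box (CACGTG). They occurred in 33.1%, 1.83%, 8.87% and 6.42% of the 33469 rat promoters of the same length, in that order. The Bid window held 3 GC boxes, the Mcl1 window held 1, which reads CCGCCC because it lies on the other strand, and the Bcl2 window held none of the 4 motifs. Bid and Mcl1 had 63.3% and 64.3% G and C in these windows. Bcl2 had 32.7%, against a median of 51.7% over all promoters, and 2.73% of all promoters had as little as Bcl2 or less. These features did not follow the direction of the log2 ratios over the members. Bcl2l2, whose mean log2 ratio was below 0, also had 1 GC box and 64.3% G and C, and Bad, whose mean was above 0, had no GC box and 54.3%. A match describes the letters in the window and is not a measured binding site. The windows follow the annotated starts, and which starts the cortex used was not tested. The Bcl2 values thus describe the printed window and not every promoter of the gene. In all, 8 of the 10 members had a promoter in the table, in 11 entries.

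Signals are normalized signals in arbitrary units, with a constant of 50 added during background correction. They were normalized within each array and not between arrays, so signals compared across arrays also carry differences in brightness between arrays. A log2 ratio is the log2 of kaolin over saline on 1 array, so a value above 0 is higher in kaolin. Testing required a signal flagged as well above background, in either channel, on 3 or more arrays, and 16 of the 18 member probes, from 9 of the 10 genes, passed. Over the whole array, 29113 probes (71%) were tested. Each gene is represented by its brightest tested probe unless another probe is named. The kaolin channel held 27956 to 29385 probes clearly above background per array and the saline channel 27372 to 28930, and no spot was saturated. Array 2 stood apart from the other arrays. Its log2 ratios over all tested probes correlated with those of array 1 at -0.37 and with those of the other 3 arrays between -0.17 and -0.06, while the other pairs of arrays correlated at 0.12 to 0.83. These correlations do not settle its direction, and why it stood apart was not tested. On array 2 the median of the choroid plexus markers kept the sign of the other arrays at -1.43. Gfap did so at 0.60, while the median of the 5 reactive astrocyte markers, Gfap among them, was -0.04 and did not. The medians of neuronal markers (0.29) and dividing-cell markers (-0.22) had the opposite sign to the other arrays. Means are also given without array 2 and with its sign turned.

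No tested probe of any gene passed an adjusted p of 0.05 (limma; 0 of 29113, or 0%), so none of the family's 16 tested probes did. The smallest adjusted p in the limma fit was 0.243. At an unadjusted p under 0.05, 2567 probes were higher and 2712 lower in kaolin. With 5 arrays, an exact sign-flip permutation test over arrays (two-sided) cannot go below 0.0625. The family is therefore described by its values and their spread. Of the 9 tested genes, 6 had a positive mean log2 ratio, against 49.2% of all tested probes. The 6 were Bax, Bak1, Bid, Bad, Bbc3 and Mcl1, and the other 3 were the survival genes Bcl2, Bcl2l1 and Bcl2l2. The median of the 9 gene means was 0.28, against -0.0034 over all tested probes. An unadjusted limma p under 0.05 was reached by 5 of the 9 genes in the higher direction, where 8.82% of all tested probes reached it, and by 1 gene, Bcl2, in the lower direction, where 9.32% did. Bax and Bak1, 2 of the 9 genes, were higher in kaolin on 5 of 5 arrays, against 6.22% of all tested probes. None of the 9 was lower on 5 of 5 arrays, against 6.64%.

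**Figure D1:**
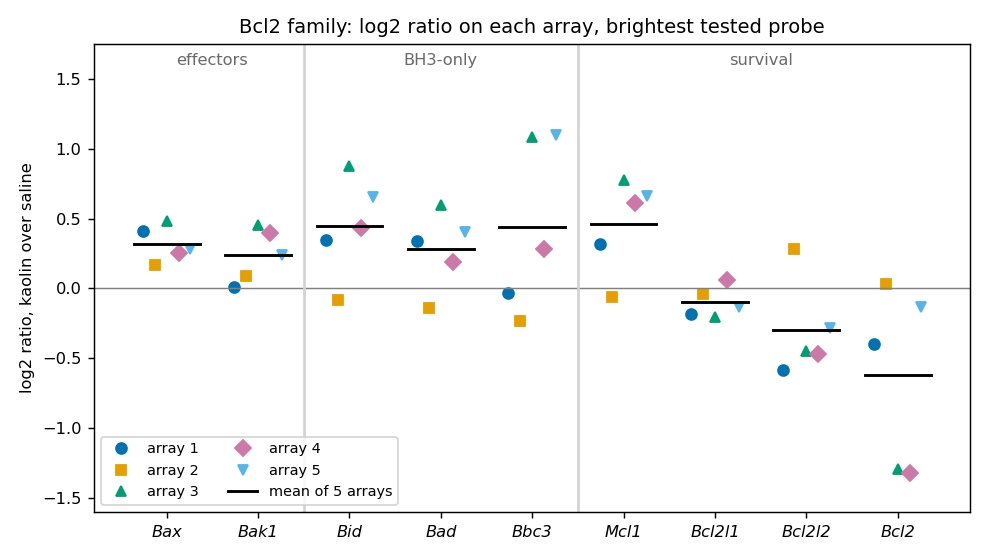
Log2 ratio of kaolin over saline (vertical axis) for the brightest tested probe of each of the 9 tested genes, with 1 point per array and a bar at the mean of the 5 arrays. The effectors and BH3-only genes and Mcl1 have means above 0, the other 3 survival genes have means below 0, and the square of array 2 lies close to 0 or on the other side of 0 from the mean for most genes.

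With the brightest probe of each gene, both effectors were higher in kaolin on every array. The Bax probe, which matches a record for a Bax splice variant and lies at chr1:95932941-95933000 on the minus strand (rn4), had signals of 8346, 7391, 9193, 7530 and 7485 in kaolin on arrays 1 to 5, against 6288, 6591, 6576, 6305 and 6159 in saline. Every kaolin signal was above every saline signal, and no other probe of the family separated the groups in this way. The share of all tested probes that did so was not counted. The log2 ratios of Bax were 0.41, 0.17, 0.48, 0.26 and 0.28, with a mean of 0.32 ± 0.13 (SD, n = 5), or 1.25-fold. The limma p was 0.00336 before and 0.243 after adjustment over all tested probes, and the exact sign-flip permutation p was 0.0625. Without array 2 the mean was 0.36, and with the sign of array 2 turned it was 0.25.

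A second Bax probe, for the reference transcript, was printed in 10 spots and has no position in the array files. Its log2 ratios were 0.30, -0.16, 0.28, 0.09 and 0.0035, with a mean of 0.10 ± 0.19 (SD, n = 5; limma adjusted p = 0.538). Its kaolin signals, 1653 to 2262, overlapped its saline signals, 1675 to 1869. The 10 spots of this probe gave log2 ratios with a standard deviation of 0.0413 to 0.0535 within an array, and the spread between arrays was 4.3 times the mean of that. The brighter Bax probe was above the 10-spot probe on all 5 arrays, by 0.22 ± 0.09 in log2 ratio (SD, n = 5).

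Bak1, the other pore-forming effector, is represented by a probe at chr20:5256042-5256101 on the minus strand (rn4). Its signals were 1076, 1253, 1648, 1363 and 1390 in kaolin, against 1068, 1180, 1205, 1037 and 1176 in saline. In 4 of the 5 kaolin samples the signal was above the highest saline signal, and the kaolin sample of array 1 lay within the saline range. The log2 ratios were 0.01, 0.09, 0.45, 0.39 and 0.24, with a mean of 0.24 ± 0.19 (SD, n = 5), or 1.18-fold, and the limma p was 0.0306 before and 0.249 after adjustment. Its mean was 0.27 without array 2 and 0.20 with the sign of array 2 turned.

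The 3 tested BH3-only genes had means above 0, with a wider spread over arrays than the effectors. Bid, which is cut by caspase-8 and carries death-receptor signals to mitochondria, is represented by a probe at chr4:157297971-157298030 on the minus strand (rn4). Its signals were 187, 148, 274, 184 and 223 in kaolin, against 147, 157, 149, 136 and 142 in saline. In 4 of the 5 kaolin samples the signal was above every saline signal, and the kaolin sample of array 2 lay among the saline samples. The log2 ratios of Bid were 0.35, -0.08, 0.88, 0.43 and 0.65, with a mean of 0.44 ± 0.36 (SD, n = 5), or 1.36-fold, at a limma p of 0.0138 before and 0.243 after adjustment. The exact sign-flip permutation p was 0.125. Without array 2 the mean of Bid was 0.58 and its limma adjusted p was 0.0458, with a range of 0.0458 to 0.659 over all alternatives to the processing.

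Bad binds Bcl2 and Bcl-xL when it is not phosphorylated. Its brightest probe, at chr1:209626000-209626059 on the plus strand (rn4), had signals of 4786, 3870, 5752, 3506 and 4312 in kaolin, against 3780, 4254, 3799, 3077 and 3252 in saline. In 3 kaolin samples the signal was above the highest saline signal, and the groups overlapped. The log2 ratios were 0.34, -0.14, 0.60, 0.19 and 0.41, with a mean of 0.28 ± 0.28 (SD, n = 5), or 1.21-fold, at a limma p of 0.0396 before and 0.261 after adjustment. The other Bad probe had a mean of 0.29 ± 0.29 (SD, n = 5; limma adjusted p = 0.261), and both probes had the same sign on all 5 arrays. Without array 2 the mean of the brightest Bad probe was 0.38.

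Bbc3, a target of p53 that binds every survival member, varied most within the kaolin group. Its signals were 1696, 1523, 3869, 2099 and 3667 in kaolin, against 1738, 1791, 1824, 1723 and 1710 in saline. The saline samples spanned 1.07-fold and the kaolin samples 2.54-fold, with arrays 3 and 5 far above the saline range, array 4 above it and arrays 1 and 2 below it. The log2 ratios were -0.04, -0.23, 1.09, 0.28 and 1.10, with a mean of 0.44 ± 0.62 (SD, n = 5). The mean was smaller than this spread, and the limma p was 0.0852 before and 0.318 after adjustment. It was 0.61 without array 2, 0.28 without array 3 and 0.27 without array 5. The Bbc3 probe has no position in the array files. Bcl2l11, which has a part in the death of neurons deprived of growth factors, had a single probe (chr3:115722606-115722665, plus strand, rn4) that was not well above background in either channel on any array. It was not tested, and no ratio is given for it.

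**Figure D2:**
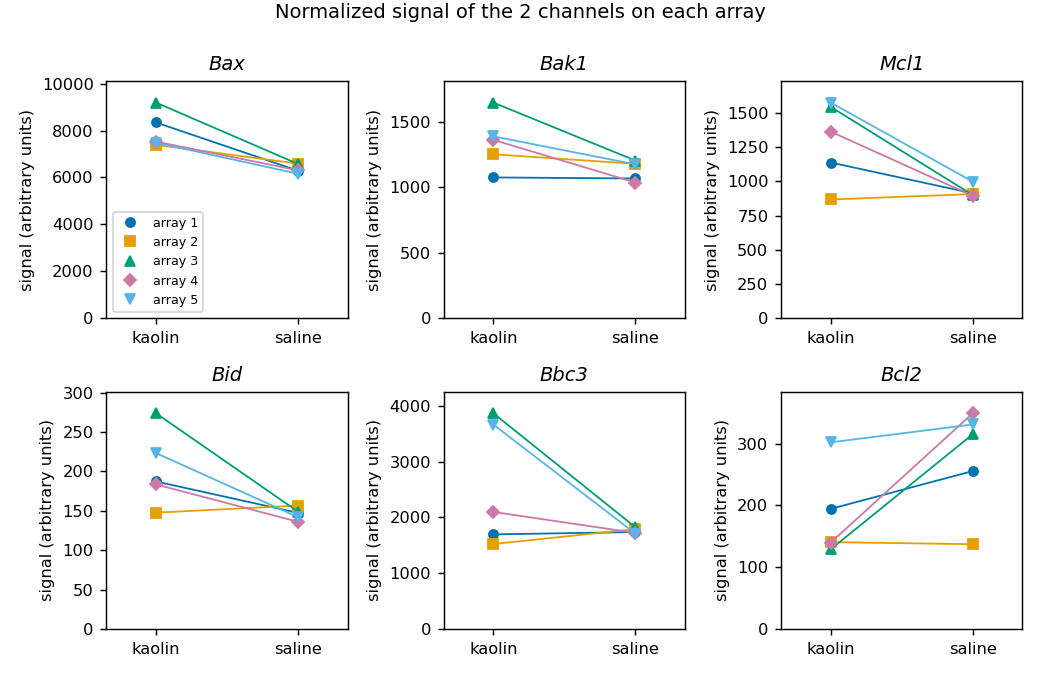
Normalized signal (vertical axes, arbitrary units, starting at 0) of the kaolin and the saline sample of each array for 6 members, with a line joining the 2 samples of an array. Bax kaolin signals of 7391 to 9193 all lie above saline signals of 6159 to 6591, while the kaolin samples of Bbc3 spread over 1523 to 3869 beside saline samples at 1710 to 1824.

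Of the 4 survival genes, Mcl1 alone had a mean above 0. Mcl1 is a short-lived protein that restrains Bak1 and the BH3-only members. Its brightest probe, placed at chr2_random:2891685-2891744 on the minus strand (rn4), had signals of 1138, 868, 1545, 1364 and 1576 in kaolin, against 913, 907, 900, 894 and 998 in saline. The 4 kaolin samples other than that of array 2 were above every saline sample, and that of array 2 was below every saline sample. The log2 ratios of Mcl1 were 0.32, -0.06, 0.78, 0.61 and 0.66, with a mean of 0.46 ± 0.34 (SD, n = 5), or 1.38-fold. The limma p was 0.00928 before and 0.243 after adjustment, and the exact sign-flip permutation p was 0.125. A second Mcl1 probe, 164 bases away, had log2 ratios of 0.20, 0.08, 0.47, 0.35 and 0.48, all above 0, with a mean of 0.32 ± 0.17 (SD, n = 5; limma adjusted p = 0.243). Without array 2 the brightest Mcl1 probe had a mean of 0.59 and a limma adjusted p of 0.0413, with a range of 0.0413 to 0.659 over all alternatives.

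Bcl2, the founding survival gene of the family, had the lowest mean of the 9 genes and its probes differed in size. The brightest probe matches a partial record named Bcl-2 beta, at chr13:12903960-12904017 on the minus strand (rn4), and had signals of 194, 141, 129, 140 and 302 in kaolin, against 256, 137, 315, 349 and 331 in saline. The groups overlapped: on arrays 1, 3 and 4 the kaolin signal was well below its saline partner, on array 5 it was slightly below and on array 2 slightly above, where the saline sample itself was the lowest of the saline group. The log2 ratios were -0.39, 0.03, -1.29, -1.32 and -0.13, with a mean of -0.62 ± 0.64 (SD, n = 5), or 1.54-fold lower in kaolin. The limma p was 0.0289 before and 0.247 after adjustment, and the exact sign-flip permutation p was 0.125. The mean was -0.78 without array 2, -0.45 without array 3 and -0.44 without array 4.

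The other Bcl2 probe, for the reference transcript, lies 740 bases away and was printed in 10 spots. It had log2 ratios of -0.20, 0.07, -0.27, -0.30 and 0.02, with a mean of -0.13 ± 0.17 (SD, n = 5; limma adjusted p = 0.396). The spots of this probe varied within an array with a standard deviation of 0.0904 to 0.146, and its spread between arrays was 1.51 times their mean. The brightest probe minus the 10-spot probe gave -1.02 on both array 3 and array 4, and -0.20 to -0.04 on the other arrays. The 10-spot probe was dim, with signals of 86 to 115 in kaolin and 82 to 113 in saline that include the added constant. Without the constant its mean was -0.265, and that of the brightest probe was -0.83. With the reported processing, the large Bcl2 ratios on arrays 3 and 4 were thus seen with 1 of the 2 Bcl2 probes. The 10-spot probe was also below 0 on these arrays, and how far the constant changed its ratios there was not tested.

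Bcl2l1, whose long form Bcl-xL is the main survival protein of mature neurons, lay close to 0. Its brightest probe (chr3:143129343-143129402, minus strand, rn4) had signals of 3339, 3789, 3206, 4051 and 3472 in kaolin, against 3783, 3886, 3700, 3892 and 3811 in saline. In 3 kaolin samples the signal was below every saline sample and in 1, on array 4, it was above them all. The log2 ratios were -0.18, -0.04, -0.21, 0.06 and -0.13, with a mean of -0.10 ± 0.11 (SD, n = 5; limma adjusted p = 0.447). Its 2 other tested probes, 48618 and 49100 bases away, had means of 0.08 ± 0.23 (limma adjusted p = 0.659) and 0.02 ± 0.17 (limma adjusted p = 0.919; SD, n = 5 each). The mean of all 3 probes was -0.00017, and another probe, printed in 10 spots, was not well above background in either channel on any array.

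Bcl2l2 (Bcl-w), a survival member found in adult neurons, had its brightest probe at chr15:32987930-32987989 on the plus strand (rn4). Its signals were 5222, 6468, 5417, 6036 and 6895 in kaolin, against 7810, 5315, 7388, 8355 and 8409 in saline. The kaolin signal was below its saline partner on 4 arrays and above it on array 2, whose saline sample had the lowest signal of the saline group, and the groups overlapped. The log2 ratios were -0.58, 0.28, -0.45, -0.47 and -0.29, with a mean of -0.30 ± 0.34 (SD, n = 5), or 1.23-fold lower, at a limma p of 0.055 before and 0.282 after adjustment. Without array 2 the mean was -0.45 with a limma adjusted p of 0.0436. With the sign of array 2 turned it was -0.41 with a limma adjusted p of 0.0487. The limma adjusted p ran from 0.0436 to 0.677 over all alternatives. Array 2 was singled out for its correlations in these same data, so passing in those fits is not independent support. The other Bcl2l2 probe, 3400 bases away, had a mean of 0.03 ± 0.08 (SD, n = 5; limma adjusted p = 0.785).

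**Figure D3:**
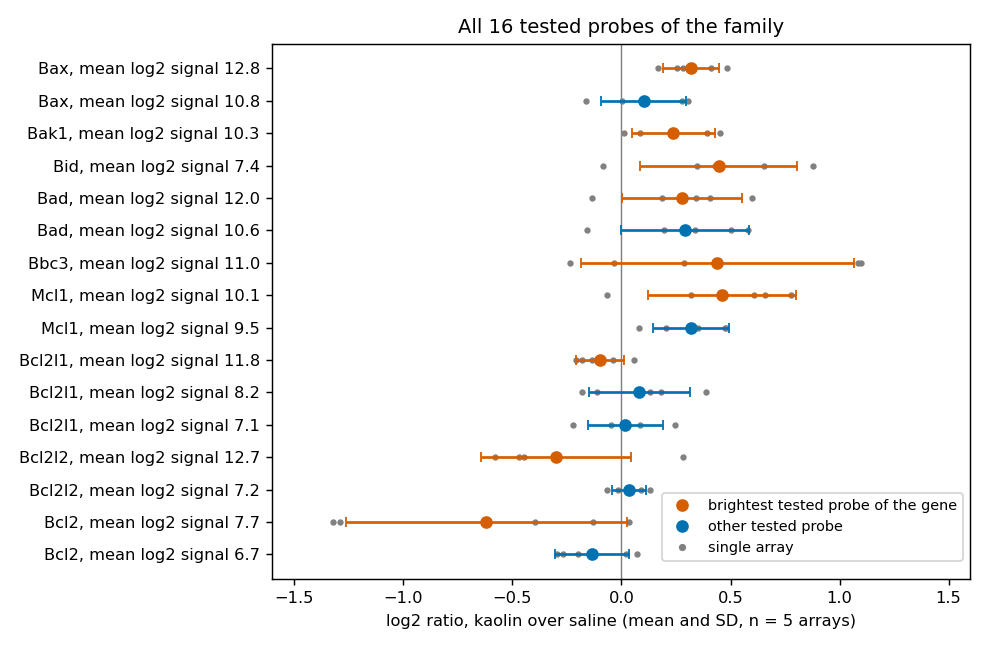
Log2 ratio of kaolin over saline (horizontal axis) of all 16 tested probes, with small points for the 5 arrays, a large point at the mean and bars of 1 SD, ordered by role and gene and named by mean log2 signal. The probes of Bad and of Mcl1 lie on the same side of 0, those of Bcl2 differ by 0.49 in their means, and the dimmer Bcl2l2 probe lies at 0.03 beside -0.30 for the brighter one.

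Over all 16 tested probes, 12 had a mean above 0 and the median mean was 0.17. An unadjusted limma p under 0.05 was reached by 7 of the 16 probes in the higher direction (8.82% of all tested probes) and by 1 in the lower (9.32%). On 5 of 5 arrays 3 probes were higher, 1 each of Bax, Bak1 and Mcl1, beside 6.22% of all tested probes. By role, all 5 tested genes that promote cell death had means between 0.24 and 0.44, and the 4 survival genes ran from -0.62 to 0.46.

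The members were also set against each other by the mean absolute difference of their log2 ratios over the 5 arrays. This used the brightest probe of each gene and was a description with no test. The second Mcl1 probe, at a mean of 0.32 beside 0.44 for Bid, was not included. Bid and Mcl1, a BH3-only and a survival gene, were the nearest pair, at 0.0666. The distances are given for the reported processing only, where the means of Bid and Mcl1 were 0.44 and 0.46. Without the added constant these means were 0.63 and 0.49, and with the Feature Extraction log ratio 0.67 and 0.49. The nearness of this pair thus depended on the processing. Bax lay nearest to Bad (0.136) and Bak1 nearest to Bax (0.137), while Bbc3 lay nearest to Bid (0.266). Bcl2l1 and Bcl2l2 were each other's nearest member, at 0.328, and Bcl2 lay nearest to Bcl2l2, at 0.457. Bcl2 and Bbc3 were the farthest apart of all pairs, at 1.17.

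The difference between effector and survival genes varied with the survival gene and with the probe chosen. With the brightest probes, the log2 ratio of Bax exceeded that of Bcl2 by 0.80, 0.13, 1.77, 1.58 and 0.41 on the 5 arrays, a mean of 0.94 ± 0.72 (SD, n = 5), and it was above on all 5. With the 10-spot probes of both genes the difference was 0.50, -0.24, 0.54, 0.39 and -0.02, a mean of 0.24 ± 0.35 (SD, n = 5), with Bax above on 3 of 5 arrays. The Bcl2 probe of that pair was the dim one described above. With the brightest probes Bax also exceeded Bcl2l1 by 0.42 ± 0.22 on 5 of 5 arrays and Bcl2l2 by 0.62 ± 0.45 on 4 of 5 (SD, n = 5 each). Over all pairs of their tested probes, the mean differences ran from 0.02 to 0.42 for Bcl2l1 and from 0.07 to 0.62 for Bcl2l2. Against Mcl1 the difference was -0.14 ± 0.28, with Bax above on 2 of 5 arrays, and the means of the other probe pairs lay between -0.36 and 0.0014. Bak1, which Mcl1 restrains, was above Mcl1 on 1 of 5 arrays, with a difference of -0.22 ± 0.22 (SD, n = 5). Against the second Mcl1 probe the difference was -0.08 ± 0.13 (SD, n = 5), with Bak1 above on 2 of 5 arrays.

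The family varied from array to array. The median log2 ratio of the 9 genes was 0.01, -0.04, 0.48, 0.26 and 0.28 on arrays 1 to 5. It was highest on array 3 and near 0 on arrays 1 and 2. All 5 effector and BH3-only genes were above 0 on arrays 3, 4 and 5, 4 of the 5 on array 1 and 2 of the 5, Bax and Bak1, on array 2.

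Markers of other cell types also differed between arrays. The 8 tested of 9 microglial markers, all with means above 0, had median log2 ratios of -0.06, 0.10, 2.16, 1.50 and 1.96, with summed signals of 17300 to 90300 in kaolin and 14900 to 18700 in saline. The 5 markers of reactive astrocytes had medians of 0.14, -0.04, 2.57, 2.14 and 2.61, with summed signals of 5400 to 54700 in kaolin and 4810 to 7750 in saline. Gfap, the astrocyte filament protein, had a mean of 1.81 ± 1.23, and the microglial genes Tyrobp and Aif1 had means of 1.53 ± 1.11 and 1.12 ± 0.84 (SD, n = 5 each; none passed the adjusted threshold in limma). The 5 general astrocyte markers had medians of -0.262, 0.255, -0.164, 0.008 and 0.254, and 3 of their means were below 0. The medians of the gene means were 0.024 for oligodendrocyte, 0.0127 for oligodendrocyte precursor, 0.0414 for endothelial and 0.129 for meningeal markers. The 7 neuronal markers were well above background in both channels on all 5 arrays. Their medians were -0.47, 0.29, -0.36, -0.23 and -0.31, and their summed signals were 59000 to 97200 in kaolin and 71000 to 97000 in saline. Snap25, a synaptic protein of neurons, had a mean of -0.24 ± 0.46 (SD, n = 5). The 3 tested markers of dividing cells had medians of 0.44, -0.22, 1.72, 0.68 and 1.06, with summed signals of 604 to 3040 in kaolin and 629 to 751 in saline. Of 7 markers of lymphocytes and granulocytes, 3 were tested, while Cd3e, Cd4 and Mpo were among those too dim to test. The 3 tested markers summed to 252 to 400 in kaolin and 236 to 317 in saline. The 4 choroid plexus markers had means below 0, with summed signals of 710 to 3230 in kaolin and 1170 to 54300 in saline. In bulk tissue a change in the number of cells of a type and a change in RNA per cell cannot be told apart. The part of these cell types in the values of the family was not tested.

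Around the family, a list of 53 other cell death genes was read in the same fit, of which 51 had a probe and 50 were tested. The list was drawn from the known roles of its genes. None passed the adjusted threshold in limma. A mean above 0 was found for 36 of the 50, with a median of 0.11, beside 0.28 for the family. An unadjusted limma p under 0.05 was reached by 10 of the 50 genes in the higher and 5 in the lower direction, beside 8.82% and 9.32% of all tested probes. In all, 8 genes were higher on 5 of 5 arrays and 3 were lower on 5 of 5, beside 6.22% and 6.64% of all tested probes. The lower counts were thus near the background.

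Among 14 tested genes of the wider Bcl2 family and BH3-domain proteins, 10 had means above 0. The survival gene Bcl2a1, known from blood cells, had a mean of 0.51 ± 0.47, with log2 ratios of 0.11, -0.01, 1.17, 0.66 and 0.61. The BH3-only genes Bik and Bmf were higher on all 5 arrays, with means of 0.38 ± 0.32 and 0.31 ± 0.20. Bnip2 had a mean of 0.31 ± 0.25 and Bnip3, which acts in the removal of mitochondria, 0.27 ± 0.40. Hrk, a BH3-only gene of neurons, had a mean of 0.05 ± 0.80, the widest spread of those named here (SD, n = 5 each). The means of Bok, Bcl2l13, Bnip1 and Bcl2l12 lay between 0.07 and 0.15, and those of Bnip3l, Bcl2l10, Bclaf1 and Bcl2l15 between -0.23 and -0.02. Bcl2l14 was too dim to test, and Pmaip1 had no matched probe.

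Downstream of the membrane, the executioner caspase gene Casp6 had the smallest unadjusted p of the list. Its log2 ratios were 0.40, 0.17, 0.85, 0.57 and 0.48, with a mean of 0.49 ± 0.25 (SD, n = 5). The limma p of Casp6 was 0.00198 before and 0.243 after adjustment. The ratios were above 0 on all 5 arrays and highest on array 3. The inhibitor of apoptosis genes Birc2 and Birc3 had means of 0.36 ± 0.21 and 0.44 ± 0.34 (SD, n = 5 each). Apaf1, the scaffold of the apoptosome, was lower on all 5 arrays, with a mean of -0.17 ± 0.10 (SD, n = 5). All 6 tested inhibitors of apoptosis and DNA fragmentation genes and all 7 membrane partners, among them the Vdac channel genes, had means above 0, with medians of 0.24 and 0.08.

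The regulators of the members were the group with a median below 0 (-0.07 over 12 tested genes, 6 on each side of 0). The 14-3-3 genes Ywhab, Ywhah and Ywhae, whose proteins hold phosphorylated Bad in the cytosol, had means of -0.36 ± 0.20, -0.30 ± 0.20 and -0.20 ± 0.13 (SD, n = 5 each). Their second probes had means of -0.08, -0.03 and 0.10, in that order. Of the other 14-3-3 genes, Ywhag and Ywhaz had means of -0.24 ± 0.36 and -0.15 ± 0.19, while Ywhaq was higher on all 5 arrays, with a mean of 0.25 ± 0.17 (SD, n = 5 each). Usp9x, whose protein removes ubiquitin from Mcl1, had a mean of -0.37 ± 0.26 (SD, n = 5). Ywhab and Ywhae were lower on all 5 arrays, and Ywhah and Usp9x on 4. The limma adjusted p of Ywhab, Ywhah, Ywhae and Usp9x lay between 0.243 and 0.248.

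**Figure D4:**
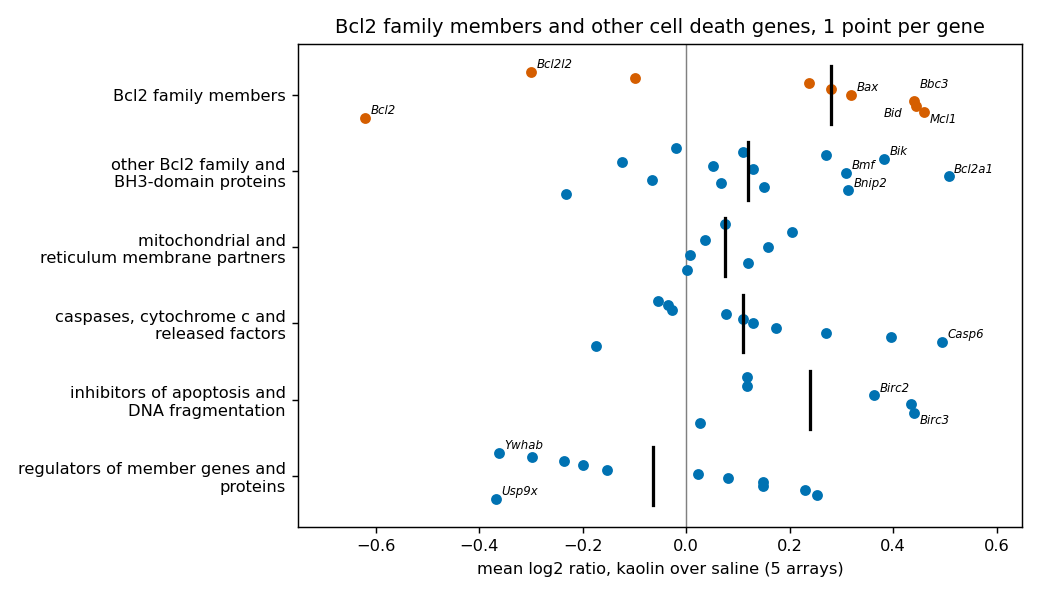
Mean log2 ratio of kaolin over saline on 5 arrays (horizontal axis), 1 point per gene, for the 9 tested members (top row) and the 50 other cell death genes by role, with a vertical bar at each group's median. The medians run from 0.28 for the members to -0.07 for the regulators, and no gene passed the adjusted threshold.

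The calls changed when array 2 was left out and when the arrays were weighted. Array 2 was singled out, and the weights were estimated, from these same data, so these calls are not independent support. Without array 2, 5.28% of all tested probes passed an adjusted p of 0.05 in limma, and of the 9 genes Mcl1, Bid and Bcl2l2 passed, in directions of higher, higher and lower. With array weights estimated by limma, which were 0.829, 0.465, 1.39, 2.21 and 0.844 for arrays 1 to 5, 9.73% of all tested probes passed, and so did 5 of the 9 genes. These were Bid (0.52), Mcl1 (0.56) and Bax (0.33) in the higher direction and Bcl2 (-0.89) and Bcl2l2 (-0.39) in the lower, with limma adjusted p between 0.0466 and 0.0498. Over all alternatives the limma adjusted p ran from 0.0466 to 0.659 for Bax and from 0.0477 to 0.659 for Bcl2. With the sign of array 2 turned, 1.68% of all tested probes passed, among them Bcl2l2 and no other gene of the family. Casp6, Birc2, Usp9x, Ywhab, Ywhag and Ywhah passed without array 2 in the list of other cell death genes.

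The scale of the ratios also depended on normalization. Centring each array on its median, in place of loess, moved the median of all tested probes to -0.10 and left 31.6% of them above 0. Under median centring the means of Bax, Bak1 and Bad were 0.07, 0.06 and 0.06, and those of Bid, Mcl1 and Bbc3 were 0.37, 0.29 and 0.24. Those of Bcl2l1, Bcl2l2 and Bcl2 were -0.32, -0.55 and -0.72. The median of the 9 genes was 0.06, and that of the 50 other cell death genes was -0.08 with 19 above 0. The shift was larger for bright probes, at -0.02 for the dimmest group of probes and -0.26 for the brightest. The 6 genes above 0 and the 3 below 0 stayed on their side under median centring.

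**Figure D5:**
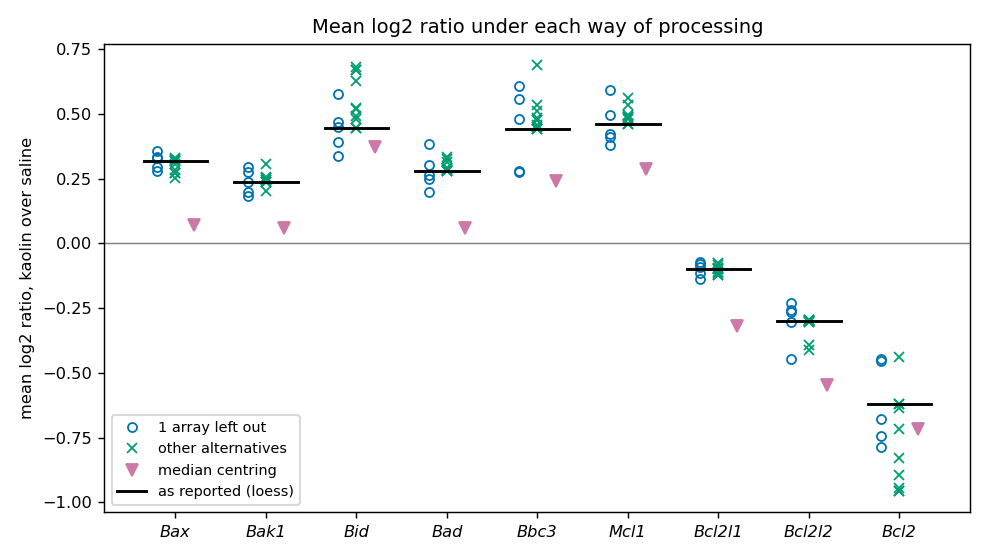
Mean log2 ratio of kaolin over saline (vertical axis) of each of the 9 tested genes as reported (bar), with 1 array left out (circles), under median centring (triangles) and under the other alternatives to the processing (crosses). The mean over all probes of a gene is not drawn. All points of a gene stay on 1 side of 0, and median centring gives the lowest value for each gene apart from Bid and Bcl2.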

How the data were processed

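RNA of kaolin and saline parietal cortex was compared on 5 two-colour Agilent arrays. Per the file headers, Agilent Feature Extraction 10.1.1.1 wrote the deposited spot signals and local backgrounds as raw intensity values, the processed signals as intensity values after dye normalization, and a log10 ratio of Cy5 over Cy3. Spot flags are other values of 0 or 1, per the file headers. The series matrix deposited by the authors holds log2 ratios whose direction was settled from the values: its columns ran opposite to the log10 ratios (correlation across probes -1 to -0.977). Their medians were 0.02, -0.05, -0.02, 0.09 and -0.10, and 86.1% of the values lay within 0.001 of the sign-turned log ratio on the log2 scale. The normalization behind them is not given in the labels or file headers.

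Outlier spots (86 to 147 per array) were left out. Signals were corrected with normexp (offset 50) and normalized by loess within arrays, with control spots at weight 0, and spots of a probe were averaged. Log2 ratios of kaolin over saline were fitted in limma 3.58.1 (R 4.3.3; files were read with the data.table package, version 1.17.8). The intercept was tested against 0, on both sides, and p-values were adjusted by Benjamini-Hochberg across all 29113 tested probes. The fit was tested on simulated data. Arrays 1 to 4 lie on 1 slide and array 5 on another. The number of arrays limits the precision. Names came from RefSeq for 10768 probes by accession, 276 by another accession, 4994 by symbol and 3341 by an older symbol, and 21633 kept the name in the file. Positions of probes were copied from the array files (rn4), where 16 of the 18 member probes have one; gene models on rn4 were not used here, so exon and UTR are not given.

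The members, the gene lists and the tests were chosen with earlier results of these data known. All probes of the members are named. Of the other cell death genes, the 5 that had the lowest unadjusted p on either side and every further Bcl2 family gene are named, apart from an item that is not reported here; genes that passed under an alternative were named after their values were seen. Alternatives covered background correction, normalization, source of the ratio, the filter on dim probes, array weights, a slide term, each array left out, the sign of array 2 and the mean over a gene's probes.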

Additional observations from a re-analysis of the deposited data

How the results depend on the processing

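All 153 values of the 9 tested genes under the 17 alternatives kept their direction, and 9 of them passed an adjusted p of 0.05 in limma where the reported fit did not. The alternatives were not all separate checks. Changes to the filter on dim probes left these means as reported, and the series matrix gave the means of the Feature Extraction log ratio. Bcl2l1 was at -0.00017 with the mean over its probes. The number of probes that passed over the whole array was 0 as reported, 22 under median centring, 2832 with array weights and 489 with the sign of array 2 turned, and it ran from 0 to 1536 with 1 array left out. The number of family genes that passed was 5 with array weights and 1 with the sign of array 2 turned, and 0 to 3 with 1 array left out. The number of family probes was 6, 1 and 0 to 3 under the same alternatives. Of the other cell death genes, 1 passed under median centring (Ywhab, -0.71), 8 with array weights, 1 with the sign of array 2 turned (Ywhag, -0.39) and 0 to 6 with 1 array left out. Without array 1, 1 probe of the whole array passed, and without array 3, 4 or 5 none did, while unadjusted limma p under 0.05 was reached by 958 to 1409 probes in the higher direction in those 3 fits. Median centring moved the median of the family to 0.0602 and that of the other cell death genes to -0.0776.

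Some dimmer probes close to 0 turned sign, and the cause was not tested. The Bcl2l1 probe with a mean of 0.08 gave -0.0328 under median centring and -0.0161 with a slide term. The Bcl2l1 probe with a mean of 0.02 gave -0.0232 under median centring, -0.0727 with a slide term, -0.0392 to 0.0783 with 1 array left out (lowest without array 4) and -0.017 with the sign of array 2 turned. The 10-spot Bax probe gave -0.0879 under median centring. The dimmer Bcl2l2 probe gave -0.0188 under median centring and -0.00136 with the sign of array 2 turned. Bcl2 was -0.44 with a slide term and -0.95 with the Feature Extraction log ratio, and Bid was 0.68 with processed signals, against 0.44 as reported. The 10-spot Bcl2 probe was not well above background in the saline channel of every array. The reported fit itself pairs the kaolin and the saline sample of each array. No paired analysis was possible in addition because nothing beyond that pairing is given: the replicate number names the array itself.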
